A study of Mus musculus with 8 samples.

Results

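Chemokines are small secreted proteins that attract white blood cells, and 10 of their genes were followed here in cultured mouse preadipocytes: Ccl2, Ccl7, Ccl5, Ccl20, Cxcl1, Cxcl2, Cxcl5, Cxcl10, Cxcl12 and Cx3cl1. They were chosen with earlier results of the comparison of Dicer knockout with control cells on these same arrays in view, so their differences between the groups are given as a description, without a test. The 10 genes are among 18193 genes that the platform annotation names by a single symbol on at least 1 probe set, and 25 other chemokine genes are among these too. A probe set is a group of array probes whose readings are combined into 1 value. The 10 genes have 17 such probe sets, and 7 of the genes have only 1.

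Preadipocytes are the fibroblast-like precursors of fat cells. The knockout group was 4 samples of subcutaneous preadipocytes that received an adenovirus carrying Cre recombinase and GFP, and the control group was 4 samples that received an adenovirus carrying GFP alone. All 8 samples came from day 2 newborns of C57BL/6 background and Dicer lox/lox genotype, were infected at 750 MOI with 4 µg/mL polybrene, and were harvested 4 days later. Cre removes the floxed part of Dicer, the ribonuclease that makes mature microRNAs from their hairpin precursors. The control cells therefore carried the same floxed alleles and had also met a virus. No array is of the Cre virus in cells without floxed Dicer, so effects of Cre or of its virus cannot be told apart from those of Dicer loss. The labels call the samples biological replicates numbered 1 to 4 and name neither animals nor cultures, so a p-value reflects only how far these samples spread, which may be technical. Each sample is a bulk RNA extract, in which fewer cells of a type and less RNA per cell cannot be told apart.

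Chemokines are grouped by the spacing of their first cysteines into CC, CXC and CX3C families, and they signal through receptors on the cells they attract. Many are made only after an inflammatory cytokine or a viral nucleic acid has activated the transcription factor NF-kB or the interferon-regulated factors, and their mRNAs are often short-lived. Preadipocytes and other stromal cells of fat are a known source of Ccl2, which draws monocytes into fat tissue. Cxcl12 differs from most of the others in that stromal cells make it without a stimulus.

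Promoter sequence was looked up for the 10 genes in RefSeq windows of build GRCm38.p6. Ccl2, Ccl7, Ccl5 and Cxcl5 had no window there, so no motif was searched before them, and 6 of the 10 genes matched. The 250 bases before the annotated start are shown for the 4 of them that hold a match to a motif, 5′ to 3′ on the strand of the gene, because these genes are known to be induced by NF-kB or interferon signalling. Capitals mark the matches and all other bases are in lower case. The NF-kB motif searched was GGGNNNTTCC on both strands, and the motif of the interferon-stimulated response element (ISRE) was GAAANNGAAA on both strands. The windows are chr5:92348890-92349139 on the minus strand for Cxcl10, and on the plus strand chr5:90890995-90891244 for Cxcl1, chr5:90903649-90903898 for Cxcl2 and chr1:83116516-83116765 for Ccl20.

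Cxcl10: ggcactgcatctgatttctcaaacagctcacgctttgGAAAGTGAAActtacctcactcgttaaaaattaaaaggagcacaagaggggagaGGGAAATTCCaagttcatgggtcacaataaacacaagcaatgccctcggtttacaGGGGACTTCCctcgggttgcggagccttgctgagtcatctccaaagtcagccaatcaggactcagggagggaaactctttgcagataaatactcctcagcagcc
Cxcl1: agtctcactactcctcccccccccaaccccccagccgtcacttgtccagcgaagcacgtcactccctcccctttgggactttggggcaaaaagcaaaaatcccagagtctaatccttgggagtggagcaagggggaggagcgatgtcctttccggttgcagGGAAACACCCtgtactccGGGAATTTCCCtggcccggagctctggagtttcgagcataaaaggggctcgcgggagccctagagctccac
Cxcl2: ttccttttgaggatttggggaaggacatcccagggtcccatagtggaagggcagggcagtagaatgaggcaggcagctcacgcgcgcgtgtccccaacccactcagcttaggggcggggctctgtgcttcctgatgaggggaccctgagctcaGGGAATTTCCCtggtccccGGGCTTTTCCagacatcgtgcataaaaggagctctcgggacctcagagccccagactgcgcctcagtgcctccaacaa
Ccl20: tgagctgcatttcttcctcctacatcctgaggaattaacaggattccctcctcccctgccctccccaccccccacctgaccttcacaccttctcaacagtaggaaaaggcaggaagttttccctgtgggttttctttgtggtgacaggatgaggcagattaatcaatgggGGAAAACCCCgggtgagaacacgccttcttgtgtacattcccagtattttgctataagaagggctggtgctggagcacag

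In the Cxcl10 window the ISRE match spans positions -213 to -204 from the start, and the 2 NF-kB matches span -159 to -150 and -104 to -95. The Cxcl1 and Cxcl2 windows hold 3 NF-kB matches each. In both, a match on each strand overlaps the other in a single capital run, at -71 to -61 before Cxcl1 and at -97 to -87 before Cxcl2. Ccl20 has 1 match, on the minus strand at -80 to -71. The windows of Cxcl12 and Cx3cl1 hold neither motif. Of all 32851 windows of the same length, 4.65% hold the NF-kB motif and 2.98% the ISRE motif. A match describes letters and is not a measured binding site.

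The values are array signals, linear intensities scaled by the authors so that the trimmed mean of each array is the same. Differences are on the log2 scale after adding 73.1, the 20th percentile of all values, to each signal, which understates differences of dim probe sets. A log2 difference is knockout minus control, with its standard error (SE) from limma, 4 arrays a group. The SE is that of the fit without replicate numbers unless it is called paired. The brightest tested probe set stands for a gene with several, and probe sets of different genes are not compared in level. Tests covered the brightest 60% of probe sets by their mean log2 value, that is 27022 probe sets for 13256 genes. Of the 17 chemokine probe sets, 11 passed this filter, for 8 of the 10 genes. Ccl20 and Cxcl2 did not pass it. The nearest probe set outside the filter was 1415804_at of Cx3cl1, with a mean signal, taken back from the log2 scale, of 215.4 against a limit of 215.5, and the nearest inside was 1419209_at of Cxcl1, at 622.0.

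Array medians lay between 321.1 and 418.9, and each array correlated at 0.9683 to 0.9729 with its closest neighbour across probe sets. The number of arrays limits the precision. The 2 probe sets of Dicer1 read 0.15 (SE 0.20) and 0.26 (SE 0.27) lower in knockout on the log2 scale, with adjusted p = 0.999 for each in limma. On the first, control 3 read 2113.7, while the other controls read 1140.7 to 1190.3 and the knockouts 1110.1 to 1403.8. The sources used here do not say where these probe sets lie relative to the deleted part, so they do not check the knockout. Same-numbered knockout and control arrays deviated together from their group means, so the replicate number was also fitted as a block, which is called the paired fit. The 5′ probe set for 18S ribosomal RNA separated odd from even numbers. It read 9524.9 and 14007.2 in odd-numbered knockouts, 5905.9 and 11355.6 in odd-numbered controls, 42617.5 and 43029.9 in even-numbered knockouts, and 30583.9 and 36375.2 in even-numbered controls. The 18S signal also ran with the groups, since the knockout array was above its same-numbered control in all 4 pairs on each of the 3 probe sets for 18S. The 3′ probe set read 4835.9 to 8811.7 in knockout and 3227.7 to 6867.5 in control, and the middle one read 6864.4 to 12977.4 in knockout and 4487.6 to 9783.2 in control. These array controls were not tested.

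Ccl2, Ccl7 and Ccl5, the CC chemokines that attract monocytes and T cells, read higher in the knockout cells. Ccl2 and Ccl7 are neighbouring genes of chromosome 11, and both proteins bind the receptor CCR2 of monocytes. The Ccl2 signal was 19608.4, 16346.4, 23131.0 and 18801.0 in knockout replicates 1 to 4, against 18385.5, 12582.4, 12150.0 and 9214.1 in control replicates 1 to 4. The groups overlap through control 1, which lies above knockout 2. The log2 difference was 0.60 (SE 0.18), or 1.52-fold. The size was uneven over the same-numbered pairs, with 0.09, 0.38, 0.92 and 1.02 in pairs 1 to 4. Without control 1 the difference was 0.78, and without control 4 it was 0.45.

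Ccl7 read 8412.8, 8620.6, 13839.0 and 9850.5 in knockout cells, against 5896.7, 6877.2, 7473.1 and 6228.5 in control cells. Here every knockout array lies above every control array, and replicate 3 is the highest in both groups. The log2 difference was 0.59 (SE 0.16), or 1.51-fold. It was 0.51, 0.32, 0.88 and 0.66 in pairs 1 to 4. Leaving out knockout 3, the highest array, gave 0.44.

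Ccl5, also called RANTES, attracts T cells and monocytes. Its signal was 8286.9, 12326.4, 10807.9 and 23726.5 in knockout cells, against 4952.2, 6707.8, 5676.7 and 7890.8 in control cells. All knockout arrays lie above all control arrays, and knockout 4 stands well above the other 3. The order of the replicates is the same in both groups, with 4 the highest, then 2, 3 and 1. The log2 difference of 1.03 (SE 0.26), or 2.04-fold, was made up of 0.73, 0.87, 0.92 and 1.58 in pairs 1 to 4. Without knockout 4 it was 0.73, and without knockout 1 it was 1.23.

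Ccl20 is the ligand of CCR6 and attracts dendritic cells and a class of T helper cells. It read 104.9, 100.8, 294.1 and 84.5 in knockout cells, against 37.8, 216.6, 86.3 and 70.9 in control cells. These signals are below the filter, the groups overlap, and a single array is highest in each.

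The plot of signals by array shows the 8 genes with a tested probe set, with lines joining same-numbered replicates.

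**Figure D1:**
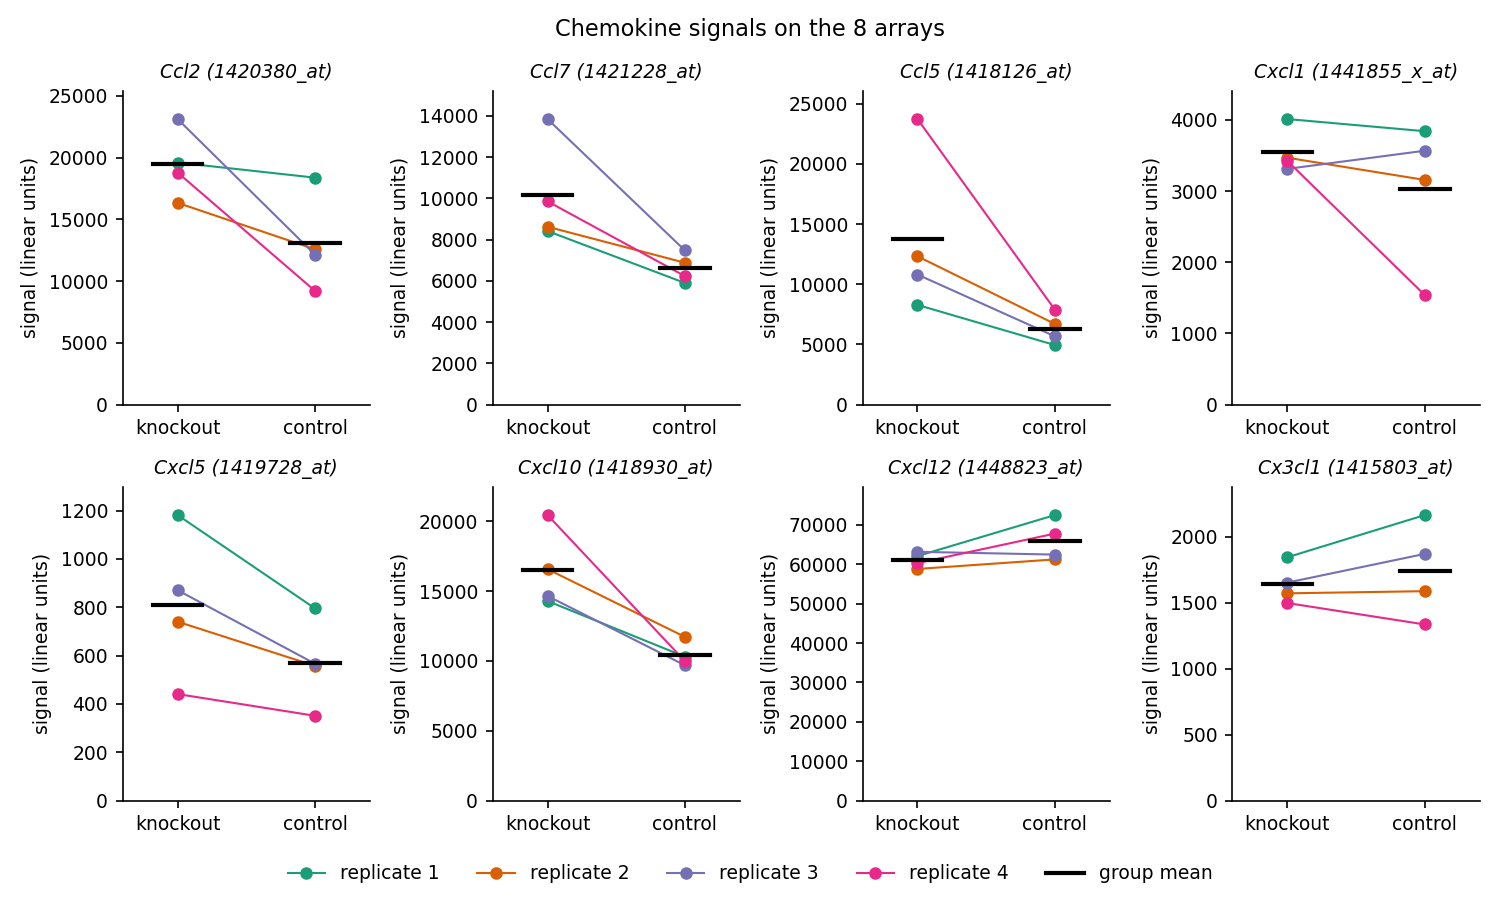
Array signal (linear units) of the 8 chemokine genes with a tested probe set, 1 panel a gene, with the 4 knockout arrays on the left and the 4 control arrays on the right. Points are arrays, coloured by replicate number, lines of the same colours join same-numbered replicates, and black bars are group means. For Ccl7, Ccl5 and Cxcl10 all knockout points lie above all control points.

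The neutrophil-attracting CXC chemokines gave differences of both signs. Cxcl1, Cxcl2 and Cxcl5 lie on chromosome 5 and their proteins act through CXCR2. Cxcl1 has 3 tested probe sets, which disagree in sign. The brightest, 1441855_x_at, read 4010.6, 3467.3, 3311.3 and 3421.6 in knockout cells, against 3840.0, 3155.5, 3566.3 and 1538.7 in control cells. The groups overlap, and control 4 is the low array. The log2 difference was 0.30 (SE 0.23), and without control 4 it was 0.01.

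The other Cxcl1 probe sets were level or lower in knockout. Probe set 1457644_s_at read 1305.1, 657.5, 714.7 and 734.5 in knockout cells, against 1393.8, 784.2, 1046.8 and 477.1 in control cells, a log2 difference of -0.07 (SE 0.29). Probe set 1419209_at read 1405.6, 623.0, 842.8 and 138.3 in knockout cells, against 1873.2, 815.6, 718.9 and 126.5 in control cells, a log2 difference of -0.11 (SE 0.66). On this last probe set the replicates of 1 group lie much further apart than the groups do, with replicate 1 the highest and replicate 4 the lowest on both sides.

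Cxcl5 read 1181.4, 740.3, 870.6 and 441.0 in knockout cells, against 795.3, 557.6, 566.5 and 351.1 in control cells. The groups overlap over most of their range, yet each knockout array is above its same-numbered control, by 0.53, 0.37, 0.56 and 0.28 in pairs 1 to 4. The log2 difference was 0.43, with SE 0.28 unpaired and 0.17 paired. It was 0.24 without knockout 1 and 0.67 without knockout 4. Cxcl2, in mouse the near neighbour of Cxcl1, was below the filter, at 175.3, 225.5, 28.1 and 143.6 in knockout cells and 302.3, 245.6, 310.8 and 122.8 in control cells, with overlap.

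Cxcl10 is induced by interferon and attracts T cells that carry CXCR3. It read 14288.3, 16570.1, 14650.4 and 20441.3 in knockout cells, against 10301.1, 11719.4, 9688.2 and 9985.4 in control cells. All knockout arrays lie above all control arrays, with knockout 4 the highest. The log2 difference was 0.65 (SE 0.13), or 1.57-fold, with 0.47, 0.50, 0.59 and 1.03 in pairs 1 to 4. Over all the settings and left-out arrays tried, it lay between 0.52 and 0.71.

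The 2 chemokines that signal mainly to retain or tether cells read nearly level. Cxcl12 holds CXCR4-bearing blood precursors near stromal cells and is also bound by the scavenger receptor ACKR3. On 1448823_at it read 62078.0, 58815.1, 63164.8 and 60290.6 in knockout cells, against 72490.9, 61237.2, 62456.4 and 67786.8 in control cells. The groups overlap and the log2 difference was -0.11 (SE 0.09). Probe set 1417574_at gave the same difference, -0.11 (SE 0.17), with replicate 3 the highest in both groups, at 11849.5 in knockout and 15708.7 in control. The last Cxcl12 probe set, 1439084_at, was below the filter, at 38.1 to 196.3 in knockout and 109.1 to 255.3 in control.

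Cx3cl1, or fractalkine, is made as a membrane protein that tethers cells with CX3CR1 and is released by the proteases ADAM10 and ADAM17. It read 1846.2, 1572.6, 1654.0 and 1498.9 in knockout cells, against 2166.2, 1588.9, 1871.8 and 1336.4 in control cells on 1415803_at. The groups overlap, and the log2 difference of -0.06 (SE 0.16) became 0.05 without control 1. Its 3 other probe sets were below the filter. On the dimmest, 1441884_x_at, the knockout arrays read 22.1 to 30.0 and the control arrays 36.8 to 227.6.

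Of the 8 chemokine genes with a tested probe set, 6 had a log2 difference above 0, against 49.6% of all tested genes. Cxcl1 is counted among the 6 by its brightest probe set, while its other tested probe sets were at -0.07 and -0.11. The 5 genes Ccl2, Ccl7, Ccl5, Cxcl5 and Cxcl10 were above 0 in all 4 pairs, against 8.64% of all tested genes. For 3 of the 8, Ccl7, Ccl5 and Cxcl10, all knockout values lay above all control values, against 1.3% of all tested genes. At an adjusted p under 0.05, adjusted by Benjamini-Hochberg across the 27022 probe sets, limma called 0 of the 11 chemokine probe sets in the unpaired fit, where 0.0037% of all tested probe sets were called. Paired SEs were 0.13 for Ccl2, 0.10 for Ccl7, 0.12 for Ccl5 and 0.10 for Cxcl10. The paired fit called Ccl5 and Cxcl10, where 0.0481% were called. Without pair 2 or pair 3 it called 0 of the 11, without pair 4 only Ccl5, and without pair 1 Ccl2, Ccl5 and Cxcl10. Because the members were chosen on this contrast, nothing is read from these counts. The 18S probe sets were likewise higher in knockout in all 4 pairs, and the part of RNA quality in the chemokine differences was not tested.

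The plot of differences by pair shows how unevenly the 4 pairs contribute. Ccl2, Ccl5 and Cxcl10 had their largest difference in pair 4 and their smallest in pair 1. Ccl7 had its largest in pair 3. The means of the odd-numbered and of the even-numbered pairs were 0.51 and 0.70 for Ccl2, 0.69 and 0.49 for Ccl7, 0.83 and 1.23 for Ccl5, and 0.53 and 0.76 for Cxcl10. As these 4 genes were above 0 in every pair, the sign of both means was given by the pairs. The sign differed between the sets for the brightest probe sets of Cxcl1, at -0.02 in odd and 0.62 in even pairs, and of Cx3cl1, at -0.20 and 0.07. The odd and even arrays differ in their 18S 5′ signal, whose part in these values was not tested.

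**Figure D2:**
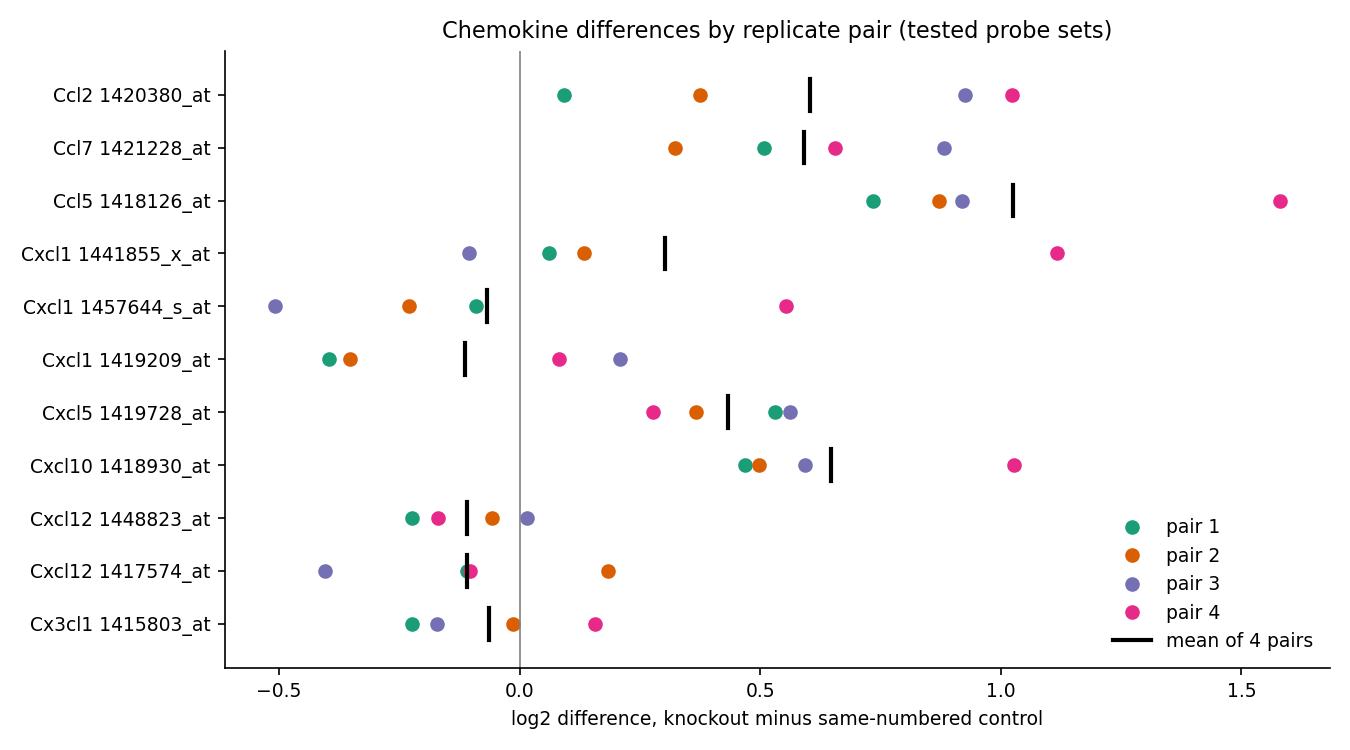
Log2 difference, knockout minus control, in each of the 4 same-numbered pairs for the 11 tested chemokine probe sets; points are pairs, bars are the mean of the 4, and the line marks 0. Ccl2, Ccl7, Ccl5, Cxcl5 and Cxcl10 have all 4 points above 0, and the 3 Cxcl1 probe sets have means on both sides of it.

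The replicate numbers gave a comparison that does not use the contrast of knockout with control. It asked whether a probe set differed between the 4 numbers alike in both groups, by limma's moderated F-test of the 3 replicate terms beside the group. At an adjusted p under 0.05, 4 of the 11 chemokine probe sets differed between numbers, against 8.3% of all tested probe sets. These were Ccl5 (F = 14.6, adjusted p = 0.0112), 1419209_at of Cxcl1 (F = 47.2, adjusted p = 0.000424), Cxcl5 (F = 8.08, adjusted p = 0.0453) and 1417574_at of Cxcl12 (F = 8.06, adjusted p = 0.0456). Ccl5 was lowest in replicate 1 and highest in replicate 4 of both groups. In contrast, this Cxcl1 probe set and Cxcl5 were highest in replicate 1 and lowest in replicate 4 of both. For Cxcl5 the highest signal was 2.68 times the lowest among knockouts and 2.27 times among controls, which is a wider spread than its difference between the groups.

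These calls depended on the setting to different degrees. Among 11 other settings, the Cxcl1 probe set was called in 10, missing without the mean-variance trend (adjusted p = 0.0662). Ccl5 was called in 9, missing without the trend (adjusted p = 0.205) and without pair 4 (adjusted p = 0.1). Cxcl5 was called in 5 and the Cxcl12 probe set in 4, with the highest adjusted p at 0.372 and 0.694. The second Cxcl12 probe set, 1448823_at, was not called (adjusted p = 0.681). By limma's F-test in the main setting, 1441855_x_at (adjusted p = 0.187) and 1457644_s_at (adjusted p = 0.074) of Cxcl1 were not called either. The latter was called in 1 of the 11 other settings. For Ccl2 (adjusted p = 0.236), Ccl7 (adjusted p = 0.0949), Cxcl10 (adjusted p = 0.404) and Cx3cl1 (adjusted p = 0.254), limma did not call a difference between numbers, which does not show that they were equal.

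**Figure D3:**
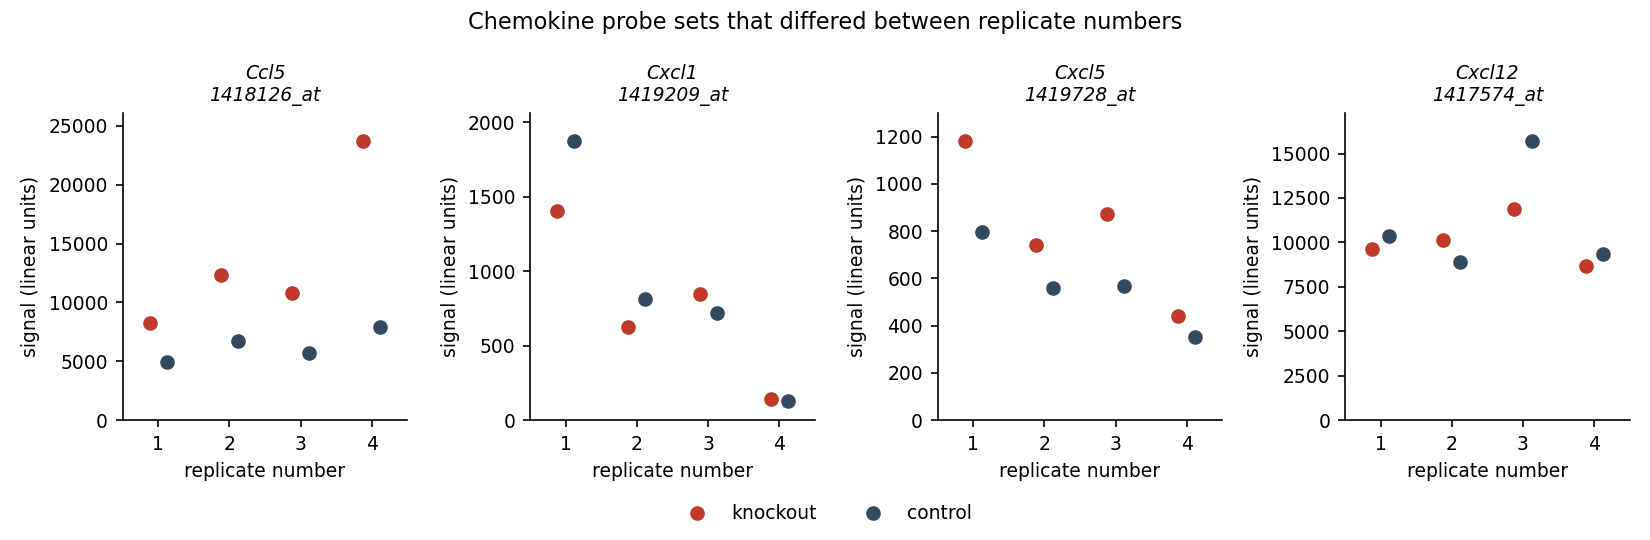
Array signal (linear units, each axis from 0) against replicate number for the 4 chemokine probe sets that differed between numbers, with knockout and control arrays side by side at each number. Ccl5 is highest at number 4 in both groups. The probe set 1419209_at of Cxcl1 and that of Cxcl5 are highest at number 1 and lowest at number 4. The probe set 1417574_at of Cxcl12 is highest at number 3.

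Within the groups, the chemokines fell into opposed patterns over the 8 arrays. The values compared here are log2 deviations from the group mean, so the difference between the groups is removed, and arrays of 1 number share whatever the number stands for. Ccl5 and Cxcl5 ran opposite to each other, with Pearson r = -0.951 and Spearman rho = -0.976, and r was -0.929 over the 6 arrays left without the 2 farthest from the Ccl5 median. Cxcl5 and Cx3cl1 ran together (r = 0.833, rho = 0.905, and 0.788 over 6 arrays). Ccl5 and Cxcl10 ran together over all 8 arrays (r = 0.823, rho = 0.738), but r was 0.329 over 6 arrays, so this relation rests on the 2 left out. The neighbouring genes Ccl2 and Ccl7, which had nearly the same difference between the groups, had a low correlation within them (r = 0.218, rho = 0.0714) over all 8 arrays, but r was 0.743 over 6 arrays, so the low value rests on the 2 left out. The 28 pairs of chemokines were compared in this way, as a description.

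The genes with the most similar deviations, 1 for each of the 8 chemokines, were sought among the other tested genes only, so none of the 8 could appear. Among 13248 other tested genes, the highest r was with Atp6v1c1 for Ccl5 (0.992), Tenm3 for Cxcl5 (0.995), Erbb3 for Cxcl10 (0.988), Rab10 for Ccl2 (0.984), Efcab14 for Ccl7 (0.971), Gm5141 for Cxcl1 (0.983), Depdc1a for Cxcl12 (0.981) and Ccdc102a for Cx3cl1 (0.986). Over 8 arrays such values are common. An r over 0.9 was reached by 397 genes with Cxcl5, by 247 with Cx3cl1 and by 141 with Ccl5, but by 22 with Ccl7, 33 with Cxcl12, 34 with Cxcl10, 43 with Ccl2 and 78 with Cxcl1.

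The rest of the chemokine system was read from 6 lists, with 84 of 118 listed genes tested. Limma called 0 of the 84 without the block and 0 with it, where 0.0037% and 0.0481% of all tested probe sets were called. Beside such low shares, a count of 0 does not set these genes apart. An unadjusted limma p under 0.05 in the unpaired fit was reached by 3 of the 84, and by 1019 of all 27022 tested probe sets. Of the 84, 47 had a difference above 0, and over all tested genes the median was -0.002. Among 15 other chemokines 10 were above 0, with a median of 0.15. The largest in size relative to its error was Cxcl9, which is induced by interferon and binds CXCR3 as Cxcl10 does. Cxcl9 read 898.5, 1105.7, 750.5 and 919.5 in knockout cells, against 566.1, 738.4, 386.6 and 476.0 in control cells. Every knockout array lies above every control array, with a log2 difference of 0.71 (SE 0.21), but it did not pass (limma adjusted p = 0.999 unpaired and 0.161 paired). The third CXCR3 ligand, Cxcl11, had a log2 difference of 0.42 (SE 0.28) with overlapping groups.

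Cxcl16, a membrane-bound chemokine that binds CXCR6, read 1079.8 to 1630.2 in knockout cells, against 1308.8 to 2308.2 in control cells, a log2 difference of -0.44 (SE 0.19). Cxcl14, which is made by many epithelial and stromal cells, had 0.51 (SE 0.29). Of 11 tested receptor genes, 10 were above 0, with a median of 0.15. They include Ackr3, the scavenger of Cxcl12, at 0.41 (SE 0.21), Ccr1, a receptor of Ccl5 and Ccl7, at 0.30 (SE 0.26), and Ccr10, a receptor of Ccl27 and Ccl28, at -0.51 (SE 0.41). The receptors Cxcr2, Cxcr4 and Cx3cr1 were below the filter in these cells.

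The genes that act on chemokines or on their expression were centred near 0. In the list of proteoglycans and proteases that retain or trim chemokines, 5 of 12 were above 0, with a median of -0.03. Adam10, which sheds Cx3cl1, had 0.21 (SE 0.12), and the syndecans Sdc2 and Sdc3, which carry heparan sulphate, had -0.23 (SE 0.14) and 0.19 (SE 0.12). Of 18 inducing cytokines and their receptors, 9 were above 0, with a median of -0.002. Examples were the TNF receptor gene Tnfrsf1a at 0.13 (SE 0.12), the cytokine Il17a at -0.72 (SE 0.36) and its receptor Il17ra at -0.16 (SE 0.16). Il17a was dim, at 90.9 to 271.9 in knockout and 222.7 to 581.9 in control, and the groups overlap. The cytokine genes Tnf, Il1a and Ifng were below the filter.

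Of 19 transcription factors and inhibitors, 8 were above 0, with a median of -0.01. Tnfaip3 encodes A20, an NF-kB-induced inhibitor of NF-kB signalling. It read 1106.6, 1038.7, 1194.9 and 1400.0 in knockout cells, against 855.3, 996.6, 765.9 and 950.3 in control cells, without overlap. Its log2 difference of 0.38 (SE 0.16) did not pass (adjusted p from limma 0.999 unpaired and 0.458 paired). The NF-kB subunit gene Rel had 0.47 (SE 0.25) and the interferon factor Irf7 had 0.25 (SE 0.24). Of 9 factors that act on mRNA decay, 5 were above 0, with a median of 0.03. They include Tia1 at -0.17 (SE 0.11), Rc3h1 at 0.15 (SE 0.14) and Hnrnpd at 0.10 (SE 0.12), which all bind elements in chemokine or cytokine mRNAs.

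**Figure D4:**
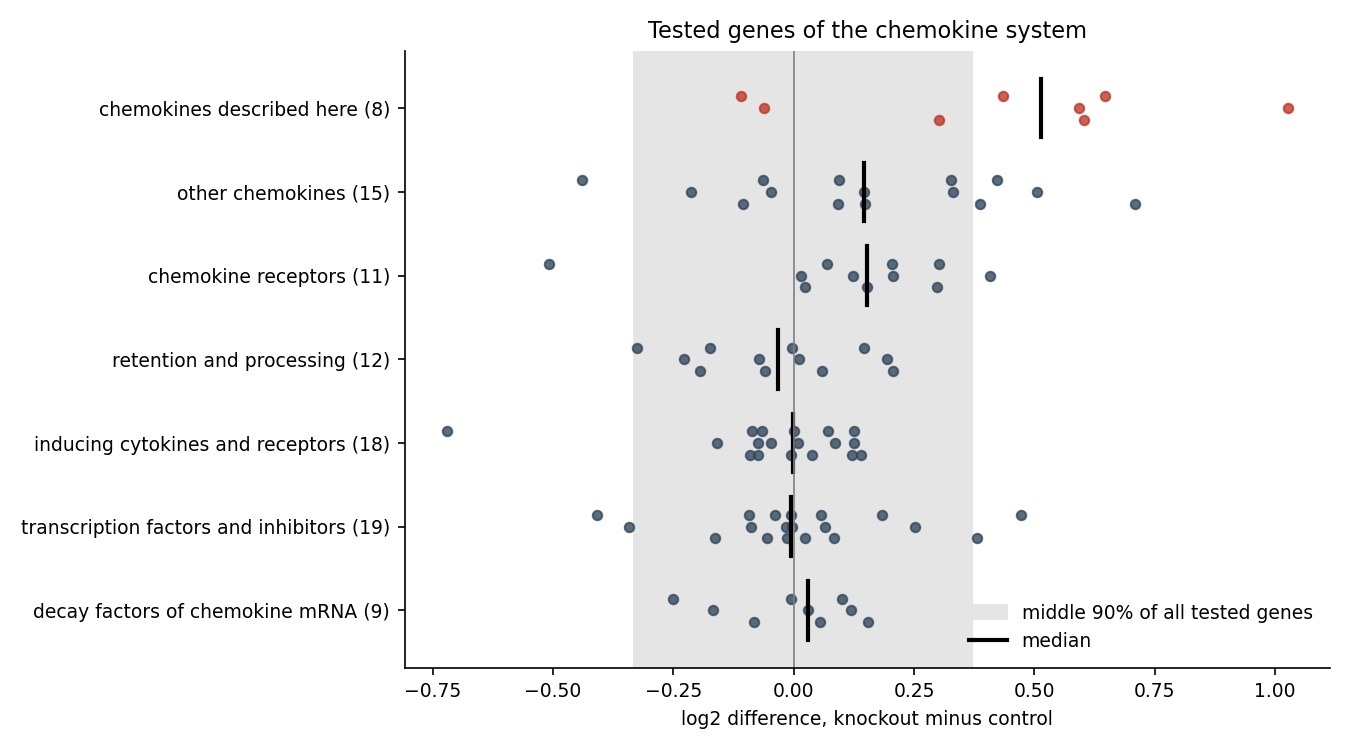
Log2 difference, knockout minus control, of the 8 chemokine genes with a tested probe set and of the tested genes of 6 other lists; each point is a gene, each short bar a list's median, and the grey band holds the middle 90% of all tested genes (-0.33 to 0.37). The listed genes lie around 0, with Cxcl9 the highest at 0.71 and the dim gene Il17a the lowest at -0.72.

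The replicate numbers also separated 20 of the 84 genes of the chemokine system at an adjusted p under 0.05 in limma's F-test, where 8.3% of all tested probe sets were called. Each gene is read by its brightest tested probe set, so these shares are of unlike units, and no share over all genes was computed. The following were picked from these 20 after their values were seen. Fos, a subunit of the factor AP-1, read 9603.5, 3753.1, 16626.4 and 4841.1 in knockout replicates 1 to 4 and 12785.4, 6098.2, 15845.5 and 7394.9 in control replicates 1 to 4 (adjusted p = 0.000357). Nfkbiz, an NF-kB cofactor, read 4485.7, 2741.9, 8126.8 and 2181.2 in knockouts and 5781.8, 2282.6, 5766.7 and 1701.8 in controls (adjusted p = 0.000559). Both genes were higher in every odd-numbered array than in every even-numbered array, whereas the 18S 5′ signal was lower there. Ccl8, a monocyte chemokine, was lowest in replicate 1 of both groups, at 1146.5 in knockout and 770.3 in control (adjusted p = 0.00194).

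Markers of other cells were read beside the chemokines. Macrophages and other leukocytes are known also to make Ccl2, Ccl5 and Cxcl10. Of 10 macrophage and leukocyte markers 7 passed the filter, and limma called 0 between the groups in both fits. Over all tested probe sets, 0.0037% were called in the unpaired and 0.0481% in the paired fit. The signal summed over the 10 was 5313.7 to 5946.3 in knockout cells and 5297.7 to 6421.1 in control cells, so the groups overlap. Ptprc, which encodes the leukocyte antigen CD45, read 44.7 to 130.5 in knockout and 8.5 to 138.4 in control, and Itgam, which encodes CD11b, read 9.5 to 16.4 in knockout and 5.3 to 12.5 in control, both below the filter. Of the 7 tested markers, 3 were above 0 and 4 below, with a median of -0.01. Tyrobp, a signalling adaptor of myeloid cells, read 240.2 to 347.9 in knockout and 56.9 to 281.2 in control, with a log2 difference of 0.60 (SE 0.34) and overlapping groups. The macrophage marker Cd68 went the other way, with a log2 difference of -0.37 (SE 0.24) and 0 pairs above 0. It read 724.3 to 1335.6 in knockout and 882.1 to 1749.8 in control. No marker was at exactly 0.

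Limma called 0 of the tested markers of endothelium (2 of 5 listed), pericytes (2 of 4), keratinocytes and epithelium (2 of 5), Schwann and neural cells (2 of 4) and skeletal muscle (3 of 4) in either fit. In the unpaired fit 3 of them, Acta1, Epcam and Krt10, had an unadjusted p under 0.05. For comparison, 1019 of the 27022 tested probe sets had such a p, counted by probe set and not by gene. Whether these markers exceed that share was not tested. The 3 tested muscle markers were all above 0, with a median of 0.53. Of these, the actin gene Acta1 had 0.53 (SE 0.19) and was higher in knockout in 4 of 4 pairs, the muscle regulator Myod1 had 0.55 (SE 0.32) and the filament gene Des had 0.03 (SE 0.23). The signal summed over the 4 muscle markers was 2425.3 to 3107.2 in knockout and 1521.4 to 3031.8 in control. Epcam, an epithelial adhesion gene, had 0.42 (SE 0.17). The keratin gene Krt10 read 1632.2 to 1848.1 in knockout, below all control arrays at 1927.8 to 2520.4, with -0.37 (SE 0.13). Each of these 5 genes had an adjusted p of 0.999 unpaired in limma. The part of these markers in the chemokine differences was not tested.

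Of 12 markers of preadipocytes and stromal cells, the labelled cell type, 11 were above the filter, among them Pdgfra, Pdgfrb, Col1a1 and Dcn. Of the 11, 6 differed between replicate numbers by limma's F-test, against 8.3% of all tested probe sets, a share over probe sets and not genes. Of 6 adipocyte markers, Adipoq and Lep were below the filter and Fabp4 and Retn above it. Fabp4, a fatty acid carrier, read 1877.4, 5961.4, 5952.0 and 6206.2 in knockout cells, against 2079.7, 3941.2, 3057.2 and 3493.4 in control cells. Replicate 1 is the lowest in both groups (limma F-test between numbers, adjusted p = 0.00905), and the log2 difference was 0.55 (SE 0.34; limma adjusted p = 0.999 unpaired and 0.251 paired). Retn had a log2 difference of -0.26 (SE 0.24). Between the groups, limma's paired fit called 1 of the 11 stromal markers, Dlk1, as lower in knockout (adjusted p = 0.0436). Over all tested probe sets this fit called 0.0481%. Without pair 3 it called 0, so Dlk1 was not called there. Dlk1, an inhibitor of fat cell differentiation, read 60140.3, 25167.6, 24502.7 and 15603.5 in knockout cells, against 72944.1, 44809.0, 50687.1 and 26166.8 in control cells. Its log2 difference was -0.72 (SE 0.37 unpaired, 0.11 paired). The part of the stromal and adipocyte markers in the chemokine differences was not tested.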

How the data were processed

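RNA of 8 preadipocyte samples, 4 knockout and 4 control, was measured on Affymetrix arrays, 1 array a sample. Per the submitters' processing notes, GCOS 1.3 and MAS5 were used. The deposited values are linear intensity (signal) per probe set, and their 2% trimmed mean was 1500 on each array, so the arrays had been scaled. The sources used here give no further normalization.

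Values were taken as log2(signal + 73.1) in R 4.3.3 and tested with limma 3.58.1 (lmFit, eBayes with trend, two-sided, Benjamini-Hochberg adjustment over 27022 probe sets, threshold 0.05). The scripts were tested on simulated data. Python 3.11.15 with matplotlib 3.10.9 made the figures. The 64 array controls of 45101 probe sets were left out. The platform annotation gave 1 symbol for 34945 probe sets, several for 932 and none for 9160, and only the first were named. A RefSeq gene table was compared with 34754 of them by gene ID, and 0 symbols differed. Cxcl1, Cxcl12 and Cx3cl1 have several probe sets.

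The members and lists were chosen with earlier results of these data known. The text names all 10 members, from each of 6 lists any gene called and the 3 with the largest moderated t in size, and for each member the genes most alike in deviation; other named genes are marked as chosen after their values were seen, or are markers or relatives of a member. Cxcl11 was added in this way.

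The labels share replicate numbers between groups. Deviations from the group means of same-numbered arrays correlated at 0.342, 0.189, 0.199 and 0.373 for numbers 1 to 4, and those of different numbers at -0.347 to 0.149. As every same-numbered pair exceeded 0.1, same-numbered samples were treated as pairs in the pair differences and the paired fit. Some arrays of different numbers also exceeded 0.1, up to 0.149 for knockout 4 with control 2. The rule therefore does not single out same numbers. What a number stands for is not stated. The unpaired fit was the main design and the paired fit an alternative. Other alternatives were the pseudocount, scaling, filter and trend, and leaving out each array or pair.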

Additional observations from a re-analysis of the deposited data

Results flagged for a closer look

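In 58 groups of 4 arrays, those of 29 probe sets described here, 4 held an array far from the other 3 (a gap over range above Dixon's critical value for 4). Chance gives about 1 in 20 groups. The Cxcl1 probe set 1457644_s_at read 1305.1 in knockout 1, against 657.5 to 734.5 in the other knockouts. Cxcl16 read 1630.2 in knockout 4, against 1079.8 to 1113.3 in the other knockouts. Cxcl14 read 401.0 in control 1, against 669.6 to 717.4 in the other controls. Irf7 read 3638.6 in control 1, against 6347.8 to 6775.1 in the other controls. Their causes were not tested.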

How the results depend on the processing

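With 4 arrays a group, the unpaired fit called 1 probe set between knockout and control. It called 0 with median centring, without a filter or without the trend, and 0 to 2 when single arrays were left out. With replicate numbers as a block, the paired fit called 13 (10 higher), and 80 without pair 1, 1 without pair 2, 0 without pair 3 and 2 without pair 4. Median centring moved the median of all tested genes to -0.03. Limma called 0 of the 84 other chemokine-system genes under every setting tried. The count of chemokines above 0 was 6 of 8, except 7 of 8 without control 1, 7 of 10 without a filter and 6 of 11 with every probe set counted.

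The replicate-number test called 2243 probe sets, but 915 with median centring, 1169 without a filter, 0 without the trend, 791 without pair 1 and 627 without pair 4. The cause of these shifts was not tested. Of the 8 chemokine differences, only that of Cx3cl1 turned its sign in 19 other settings, without control 1. Those of Ccl5 ran from 0.73 to 1.23, of Cxcl1 from 0.01 to 0.44 and of Cxcl5 from 0.24 to 0.67. Dim probe sets, such as those of Ccl20 and Cxcl2, are limited by background.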
